A study of Mus musculus with 9 samples.

Results

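Expression of the transcriptional coactivators YAP and TAZ (genes Yap1 and Wwtr1), of the 4 TEAD DNA-binding partners (Tead1 to Tead4) and of 4 regulators (Vgll4, Amot, Wwc1 and Nf2) was followed across 9 bulk RNA sequencing libraries of mouse tumour tissue. The 10 genes were chosen by symbol from the 17482 genes of the deposited table, and all 10 had a row there. The rescued tumours, YSGr (n = 3), and the non-rescued tumours, YSGnr (n = 3), had the genotype fYap1;fSMO-M2;hGFAPcre. The SG tumours (n = 3) had the genotype fSMO-M2;hGFAPcre, so all 3 groups shared the SMO-M2 allele and the Cre driver, and the floxed Yap1 allele set YSGr and YSGnr apart from SG. SMO-M2 is a constitutively active form of the Hedgehog signal transducer Smoothened, and the hGFAPcre driver is known to be active in neural progenitors of the developing brain that give rise to neurons and glia. Tissue, named MB in the labels, was taken at postnatal day 8 or 9. What counted as rescue, the sex of the mice, which exons of Yap1 were floxed and whether each library is 1 animal are not stated in the labels. A p-value here therefore reflects variation among libraries, part of which may be technical.

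In the Hippo pathway, a kinase cascade phosphorylates YAP and TAZ and keeps them out of the nucleus. When the cascade is off they enter the nucleus and act on genes through TEAD factors, which bind DNA and have little activity of their own. Vgll4 competes with YAP for TEAD, Amot (angiomotin) binds YAP and TAZ at junctions and the actin cytoskeleton, and Wwc1 (Kibra) and Nf2 (Merlin) act upstream of the kinases. In the developing cerebellum YAP is known as a Hedgehog-responsive factor of granule neuron precursors, the cells from which Hedgehog-driven tumours of this region arise.

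The values are log2 CPM, read counts scaled to library size on a log2 scale, as the authors deposited them. The effective library size was lowest in YSGnr replicate 1, at 3.92 M (mega) reads, and 18.1 to 32.3 M reads elsewhere. The genes Yam1 and Lars2 made up 63.4% of reads in that library and 1.98% to 8.15% elsewhere. Granule progenitor and Hedgehog markers were present in all 9 libraries. Their summed level ran from 2343 to 3283 CPM in YSGr, from 3143 to 3417 CPM in YSGnr and from 3649 to 3772 CPM in SG. The sum is weighted towards Zic1, the most abundant of them, at 10.51, 10.23 and 9.66 log2 CPM in YSGr. In SG Zic1 was at 9.84, 9.81 and 9.98. The median log2 fold change of the 12 markers was -1.17 in YSGr against SG, with 9 below 0. It was -0.23 in YSGnr against SG, with 8 below 0. YSGr replicate 3 stood apart from the other YSGr libraries, with Gli1, a direct Hedgehog target, at 7.57 log2 CPM against 5.12 and 5.01 in replicates 1 and 2. Xist, which is expressed from the inactive X chromosome, was at 9.81 to 10.66 log2 CPM in the 3 YSGr libraries and at 10.81 in YSGnr replicate 1, and at or below -0.25 in the other YSGnr and all SG libraries. Sex of the tissue as read from Xist therefore cannot be told apart from group in YSGr against SG. The difference of each library from the SG mean also varied with transcript length over 14603 genes, with a Spearman rho of 0.17, 0.14 and -0.42 in YSGr replicates 1, 2 and 3 and of -0.08, -0.55 and -0.53 in YSGnr replicates 1, 2 and 3.

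The 10 genes include both DNA-binding TEAD factors and the coactivators that act through them, so promoter sequence is shown for 4 of the genes whose window holds the TEAD motif and for 1 without it. RefSeq windows of 250 bases before the annotated start (GRCm38.p6, the assembly of mm10) were found for 8 of the 10 genes, 12 windows in all, with none for Tead1 and Tead4. The 6-base TEAD motif GGAATG, or CATTCC on the other strand, occurred in 6 of the 12 windows, and in 12.6% of 32851 windows over all genes. The windows of Wwtr1 overlap and hold the same match, and several windows belong to Tead3, so the 12 are not independent. The capitals below mark the motif in Yap1, Wwtr1, Tead3 and Vgll4, 141, 136, 182 and 82 bases before the start. The Wwc1 window holds no match to either form and is shown beside them. All 5 lie on the minus strand and are written 5′ to 3′ along the gene, at chr9:8004597-8004846 for Yap1, chr3:57575911-57576160 for Wwtr1, chr17:28350806-28351055 for Tead3, chr6:114969204-114969453 for Vgll4 and chr11:35980528-35980777 for Wwc1.
Yap1: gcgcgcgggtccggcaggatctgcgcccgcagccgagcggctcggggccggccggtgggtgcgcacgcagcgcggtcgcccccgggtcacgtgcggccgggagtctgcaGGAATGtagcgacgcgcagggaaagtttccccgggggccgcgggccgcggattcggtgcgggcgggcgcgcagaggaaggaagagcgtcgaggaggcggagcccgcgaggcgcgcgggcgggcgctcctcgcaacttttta
Wwtr1: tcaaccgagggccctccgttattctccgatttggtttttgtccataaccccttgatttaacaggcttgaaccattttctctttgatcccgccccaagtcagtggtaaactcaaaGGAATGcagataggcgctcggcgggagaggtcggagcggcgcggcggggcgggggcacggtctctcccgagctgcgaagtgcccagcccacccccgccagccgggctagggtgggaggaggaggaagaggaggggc
Tead3: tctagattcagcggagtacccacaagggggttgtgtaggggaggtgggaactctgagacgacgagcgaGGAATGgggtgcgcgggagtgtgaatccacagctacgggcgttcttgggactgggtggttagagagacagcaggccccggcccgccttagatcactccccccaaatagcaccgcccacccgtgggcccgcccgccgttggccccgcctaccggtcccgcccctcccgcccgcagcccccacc
Vgll4: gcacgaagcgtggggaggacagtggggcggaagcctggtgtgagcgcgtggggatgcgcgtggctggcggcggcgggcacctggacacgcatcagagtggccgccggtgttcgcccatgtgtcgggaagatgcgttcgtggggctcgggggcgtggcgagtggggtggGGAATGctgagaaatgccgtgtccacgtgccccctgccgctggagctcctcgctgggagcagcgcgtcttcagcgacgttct
Wwc1: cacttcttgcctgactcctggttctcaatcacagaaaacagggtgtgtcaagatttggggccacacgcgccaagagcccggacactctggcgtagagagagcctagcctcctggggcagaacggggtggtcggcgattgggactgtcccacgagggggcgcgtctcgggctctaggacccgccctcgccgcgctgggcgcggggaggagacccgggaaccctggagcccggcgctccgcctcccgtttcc
The Yap1 window was the richest in CG dinucleotides of the 12, with 44, against a median of 6 over all windows, and its GC content was 76.4%, against a median of 52.4%. The 9-base GLI motif GACCACCCA, or TGGGTGGTC on the other strand, was in 0.225% of all windows and in 0 of the 12. A match describes letters in a window and says nothing of binding in these tumours.

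In both Yap1-floxed groups the coactivators and Tead1 were lower than in SG. In YSGr, 4 of the 10 genes fell against SG (Yap1, Wwtr1, Tead1 and Wwc1) and none rose, at an adjusted p below 0.05 in limma over all 15251 genes tested. Over all genes tested 10.5% were called in this comparison, 3.97% lower and 6.58% higher. In YSGnr, 4 of the 10 fell against SG (Yap1, Wwtr1, Tead1 and Amot) and none rose, where 3.36% of all genes tested were called, 2.17% lower and 1.19% higher. At an unadjusted p below 0.05, 7 of the 10 were lower and 0 higher in YSGr, where 11.9% of all genes were lower and 14.3% higher. At the same threshold 6 of the 10 were lower and 0 higher in YSGnr, where 14.5% of all genes were lower and 11.1% higher. Between YSGr and YSGnr only Tead4 was called, higher in YSGr, where 5.97% of all genes tested were called, 5.09% higher and 0.879% lower. At an unadjusted p below 0.05, 4 of the 10 were higher and 2 lower there, beside 19.3% and 14.6% of all genes. Tead4 passed the filter on low values only with the help of the YSGr libraries, where it was high. Its call and its place in these counts are therefore not independent of that filter. The median log2 fold change of the 10 was -0.61 in YSGr against SG and -0.80 in YSGnr against SG, beside -0.02 and -0.01 over all genes tested. It was 0.26 in YSGr against YSGnr, beside 0.01. Both comparisons with SG share the same 3 SG libraries. Yap1 is the floxed gene, so its place in every count and median against SG is not independent of the genotype.

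Single libraries moved these counts and the share called over all genes together. In YSGr against SG, 0 of the 10 were called without any 1 of the SG libraries or without YSGr replicate 2, where 2.15% to 2.73% of all genes were called. At an unadjusted p below 0.05 in limma these fits gave 4 to 5 of the 10, beside 18.4% to 19.5% of all genes. The count was 2 without YSGr replicate 1, where 2.62% of all genes were called, and 8 without YSGr replicate 3, where 27.9% were. For YSGnr against SG, 0 were called without any 1 of the SG libraries, where 0.125% to 0.151% of all genes were called. At an unadjusted p below 0.05 in limma these fits gave 5 to 6 of the 10, beside 16.1% to 17.1% of all genes. The count was 1 without YSGnr replicate 3, where 0.538% of all genes were called, and 6 without YSGr replicate 3, where 17.3% were. For YSGr against YSGnr, 7 were called without YSGr replicate 3, where 42.8% of all genes were called, and 3 without YSGnr replicate 1, where 31.0% were, a share like that of the 10 genes. None was called without any other library, where at most 0.0656% of all genes were, and at an unadjusted p below 0.05 in limma these fits gave 2 to 6 of the 10, beside 17.6% to 28.5% of all genes. The fit with the length trend removed covered the 14603 tested genes with a known length, against 15251 in the main fit. Its calls split into 317 higher and 332 lower in YSGnr against SG, against 181 and 331 in the main fit. In YSGr against YSGnr they split into 1066 higher and 795 lower, against 776 and 134.

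**Figure D1:**
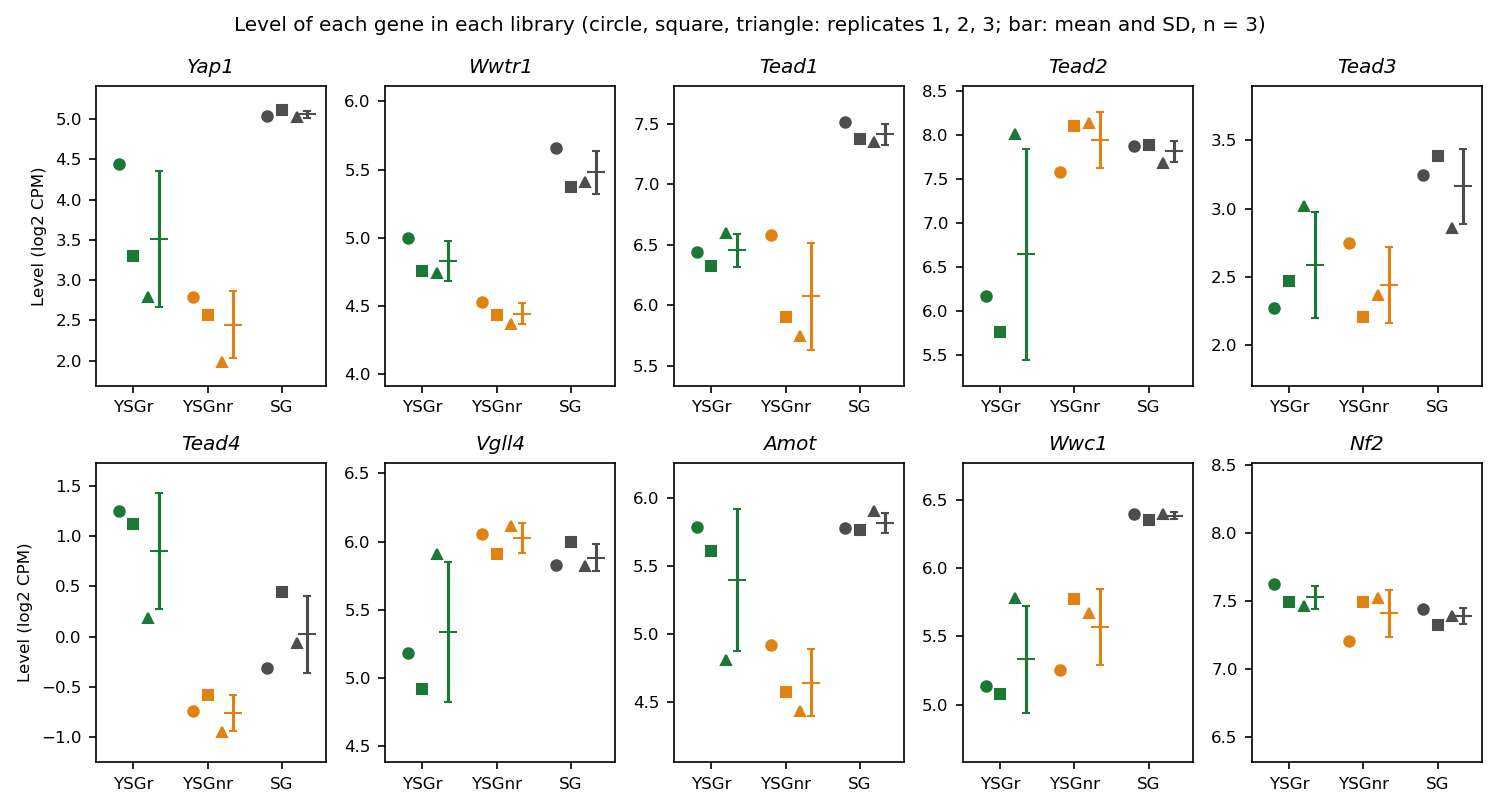
Level of each of the 10 genes in log2 CPM (vertical axes, each with its own range) in the 3 YSGr, 3 YSGnr and 3 SG libraries; the symbols are replicates and the bar is the mean and SD. Yap1, Wwtr1, Tead1 and Wwc1 lay below every SG library in all 6 floxed libraries, Tead2 was lowest in YSGr replicates 1 and 2, and Nf2 stayed between 7.21 and 7.62 throughout.

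Yap1, the targeted gene (ENSMUSG00000053110.13, chromosome 9, 7931999 to 8004596, minus strand), was at 4.44, 3.31 and 2.79 log2 CPM in YSGr replicates 1, 2 and 3, at 2.79, 2.57 and 1.99 in YSGnr and at 5.04, 5.11 and 5.03 in SG. All 6 floxed libraries were below all 3 SG libraries, and the YSGr libraries spread widely, with replicate 1 nearest to SG. Relative to the SG mean, Yap1 stood at 64.9%, 29.5% and 20.5% in YSGr and at 20.5%, 17.6% and 11.7% in YSGnr. It fell in YSGr against SG by 1.55 log2 units (SE 0.38, adjusted p = 0.0327 in limma) and by 2.61 in YSGnr against SG (SE 0.38, adjusted p = 0.0131 in limma). The difference of 1.06 between YSGr and YSGnr (95% interval 0.22 to 1.91, from the same model and not adjusted for multiple tests) was not called (adjusted p = 0.0959 in limma), although the lowest YSGr value was just above the highest YSGnr value. Between 26.7 and 1049 back-calculated reads stood behind a library's Yap1 value, the fewest in YSGnr replicate 1. These values cover the whole gene, so reads from parts of the allele outside the floxed region are included.

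The Yap1 calls depended on single libraries, though no omission turned their direction. The YSGr call was lost without SG replicate 1, 2 or 3 (adjusted p = 0.112, 0.114 and 0.10 in limma), YSGr replicate 2 (0.125) or YSGnr replicate 2 (0.0513), with the log2 fold change between -1.45 and -1.56. The YSGnr call was lost without SG replicate 1, 2 or 3 (adjusted p = 0.0955, 0.0834 and 0.0785 in limma) or YSGnr replicate 3 (0.0577, log2 fold change -2.38). The difference between YSGr and YSGnr was 1.42 and called with YSGr replicate 3 left out (adjusted p = 0.00983 in limma), and 0.60 and not called with YSGr replicate 1 left out (adjusted p = 0.286 in limma).

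Wwtr1, the gene of TAZ (ENSMUSG00000027803.14, chromosome 3, 57455649 to 57575910, minus strand), is not named as altered in any of the genotypes. It was at 4.995, 4.75 and 4.74 log2 CPM in YSGr, at 4.53, 4.44 and 4.37 in YSGnr and at 5.66, 5.37 and 5.41 in SG. The 3 groups did not overlap, with YSGr between YSGnr and SG. Relative to the SG mean, Wwtr1 stood at 71.1%, 60.2% and 59.5% in YSGr and at 51.4%, 48.2% and 46.0% in YSGnr. It fell in YSGr against SG by 0.65 log2 units (SE 0.14, adjusted p = 0.0206 in limma) and by 1.04 in YSGnr against SG (SE 0.14, adjusted p = 0.0111 in limma). Its difference of 0.39 between YSGr and YSGnr (95% interval 0.08 to 0.70) was not called (adjusted p = 0.0973 in limma). The YSGr call was lost without SG replicate 1, 2 or 3 (adjusted p = 0.105, 0.0699 and 0.0735 in limma) or YSGr replicate 2 (0.0937), and the YSGnr call without SG replicate 1, 2 or 3 (0.088, 0.0707 and 0.0763). The YSGr to YSGnr difference was 0.43 and called without YSGr replicate 3 (adjusted p = 0.0369 in limma), and 0.18 and not called with the length trend removed (adjusted p = 0.284 in limma).

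Relative to Yap1, Wwtr1 was above the SG range in 5 of the 6 floxed libraries, although both genes were below SG in all 6. The log2 ratio of Wwtr1 to Yap1 was 0.56, 1.45 and 1.95 in YSGr, 1.74, 1.87 and 2.38 in YSGnr and 0.62, 0.26 and 0.38 in SG. YSGr replicate 1 lay within the SG range, and the other 5 floxed libraries lay above it. Yap1 and Wwtr1 together came to 53.4, 36.7 and 33.4 CPM in YSGr, to 29.8, 27.4 and 24.5 CPM in YSGnr and to 83.4, 75.8 and 74.9 CPM in SG. Every floxed library was thus below every SG library in the summed coactivator level. These ratios compare levels in CPM not scaled to length and are given with no test. Yap1 is the floxed gene, so neither the ratio nor the sum is separate from the fall in Yap1.

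**Figure D2:**
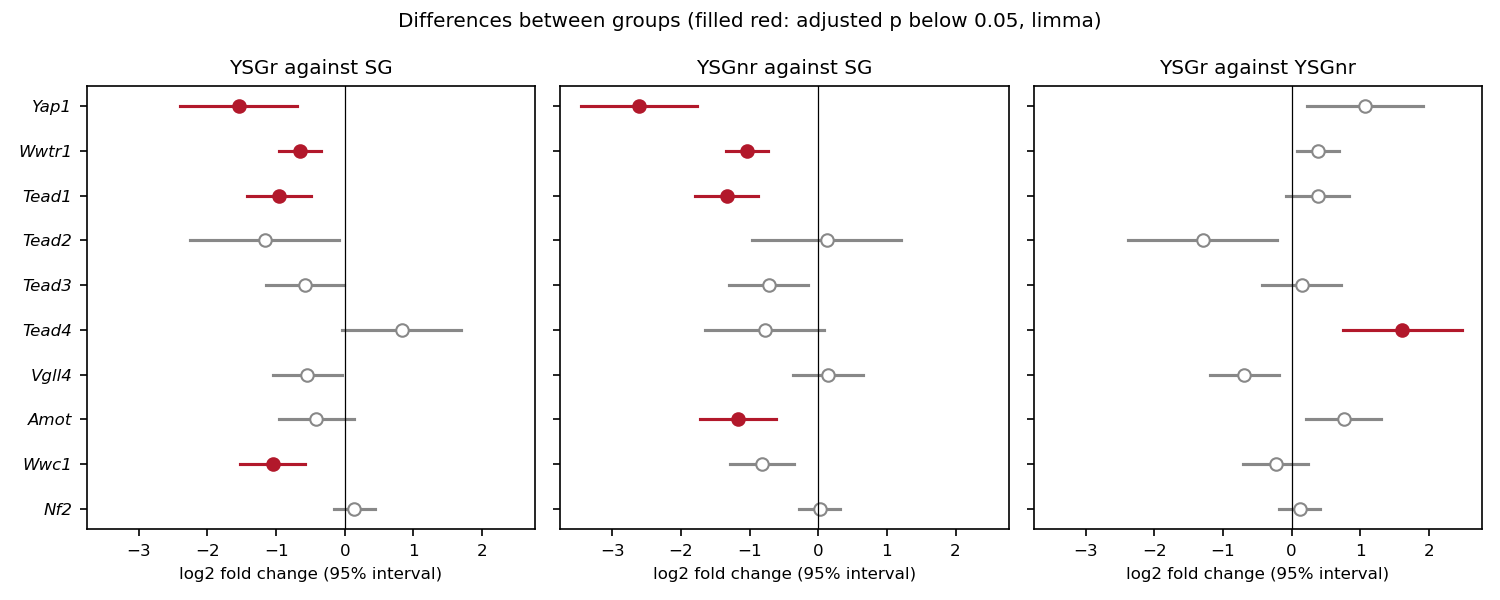
Log2 fold change of each gene (horizontal axis) with its 95% interval in YSGr against SG, YSGnr against SG and YSGr against YSGnr; filled points have an adjusted p below 0.05 in limma. Yap1, Wwtr1 and Tead1 were called lower in both comparisons with SG, and Tead4 was the only call in the third panel. Tead4 passed the filter on low values only with the help of the YSGr libraries.

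Of the 2 most highly expressed TEAD genes, Tead1 was lower than in SG in every floxed library and Tead2 in YSGr replicates 1 and 2 and YSGnr replicate 1. Tead1 (ENSMUSG00000055320.17, chromosome 7, 112679318 to 112906807, plus strand) was at 6.44, 6.33 and 6.60 log2 CPM in YSGr, at 6.58, 5.90 and 5.75 in YSGnr and at 7.51, 7.37 and 7.35 in SG. All 6 floxed libraries lay below SG. Tead1 fell in YSGr against SG by 0.96 log2 units (SE 0.21, adjusted p = 0.0216 in limma) and by 1.34 in YSGnr against SG (SE 0.21, adjusted p = 0.0162 in limma). The YSGr call was lost without SG replicate 1, 2 or 3 (adjusted p = 0.0975, 0.0831 and 0.0738 in limma) or YSGr replicate 1 or 2 (0.0837 and 0.0938). The YSGnr call was lost without SG replicate 1, 2 or 3 (adjusted p = 0.111, 0.0874 and 0.0911 in limma) or YSGnr replicate 3 (0.0605). Tead1 has the longest transcript of the 10 genes, 9964 bases, and with the length trend removed from each library its difference in YSGnr was -0.80 and no longer called (adjusted p = 0.0525 in limma), while in YSGr it was -0.94 and called (adjusted p = 0.015 in limma). Between YSGr and YSGnr the Tead1 difference was 0.38 and not called (adjusted p = 0.213 in limma), 0.63 and called without YSGnr replicate 1 (adjusted p = 0.0195 in limma), 0.21 and not called without YSGnr replicate 3 (adjusted p = 0.53 in limma), and -0.13 with the length trend removed.

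Tead2 (ENSMUSG00000030796.17, chromosome 7, 45215753 to 45233644, plus strand), a TEAD factor of early embryonic and neural progenitor tissue, was at 6.16, 5.76 and 8.01 log2 CPM in YSGr, at 7.57, 8.10 and 8.14 in YSGnr and at 7.88, 7.88 and 7.67 in SG. YSGr replicates 1 and 2 were below every other library, and YSGr replicate 3 was within the YSGnr range. With all 3 YSGr libraries the difference from SG was -1.17 (SE 0.48, adjusted p = 0.163 in limma) and that from YSGnr was -1.29 (adjusted p = 0.106 in limma), neither of them called. Without YSGr replicate 3 they were -1.85 (adjusted p = 0.000502 in limma) and -1.98 (adjusted p = 0.000382 in limma), and without YSGr replicate 2 they were -0.73 (adjusted p = 0.469 in limma) and -0.85 (adjusted p = 0.346 in limma). The YSGnr to SG difference was 0.13, with a 95% interval from -0.96 to 1.21. The same 2 YSGr libraries were low in Atoh1, the defining transcription factor of granule neuron precursors, at 3.89 and 3.34 log2 CPM against 6.89 in YSGr replicate 3. In SG Atoh1 was at 5.89, 6.76 and 6.15 log2 CPM. Other genes of the progenitor list were highest in those 2 libraries, with Zic1 at 10.51 and 10.23 and Zic2 at 8.62 and 8.48 log2 CPM. The part of these markers in the Tead2 difference was not tested.

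Tead3 (ENSMUSG00000002249.21, chromosome 17, 28331671 to 28350817, minus strand) was a low-level member, at 2.27, 2.47 and 3.02 log2 CPM in YSGr, at 2.75, 2.20 and 2.37 in YSGnr and at 3.25, 3.39 and 2.86 in SG. Its differences from SG, -0.58 in YSGr (adjusted p = 0.187 in limma) and -0.72 in YSGnr (adjusted p = 0.125 in limma), were not called with all libraries. Without YSGr replicate 3 both were called, at -0.80 and -0.72 (adjusted p = 0.035 and 0.0475 in limma), and without YSGnr replicate 1 the YSGnr difference was -0.88 (adjusted p = 0.0461 in limma).

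Tead4 (ENSMUSG00000030353.15, chromosome 6, 128224288 to 128300823, minus strand), known for its role in the trophectoderm and in muscle, was the lowest of the 10. It was at 1.25, 1.12 and 0.19 log2 CPM in YSGr, at -0.74, -0.58 and -0.95 in YSGnr and at -0.31, 0.44 and -0.07 in SG. It passed the filter on low values, a log2 CPM above 0 in at least 3 libraries, through the 3 YSGr libraries and 1 SG library. The test of whether Tead4 was higher in YSGr is therefore not independent of the filter. YSGr was higher than YSGnr by 1.61 on the log2 scale (SE 0.39, adjusted p = 0.046 in limma), with all YSGr values above all YSGnr values. Only 2.00, 14.0 and 9.0 reads stood behind the YSGnr values, against 67.0, 56.0 and 24.0 in YSGr, so the size of the difference is imprecise, and the log2 CPM scale understates it at this depth. The call was lost without SG replicate 1, 2 or 3 (adjusted p = 0.0819, 0.0799 and 0.0903 in limma), without YSGr replicate 1 or 2 (0.202 and 0.198) and without YSGnr replicate 2 or 3 (0.118 and 0.139). It was also lost with median scaling (0.0541), with quantile normalization (0.0645) and with the 6 YSGr and YSGnr libraries alone (0.162). Without YSGr replicate 3 the YSGr difference from SG was 1.16 and called (adjusted p = 0.0467 in limma), against 0.83 and not called (adjusted p = 0.21 in limma) with all libraries and 0.50 and not called with an added value of 1 CPM (adjusted p = 0.168 in limma).

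On a scale that allows levels of different genes to be set side by side, CPM per kb of longest coding transcript, the 4 TEAD genes summed to 32.2, 26.6 and 88.7 in YSGr, to 68.2, 88.7 and 90.2 in YSGnr and to 91.1, 90.3 and 79.3 in SG. YSGr replicates 1 and 2 were the lowest of the 9 libraries. Tead2 supplied 65.4%, 59.9% and 85.4% of that sum in YSGr, 82.2%, 91.2% and 91.9% in YSGnr and 75.9%, 77.0% and 75.8% in SG. Tead1 supplied 27.0%, 30.2% and 10.9% in YSGr, 14.0%, 6.75% and 5.97% in YSGnr and 20.1%, 18.4% and 20.6% in SG. In the YSGnr libraries the Tead2 share was above, and the Tead1 share below, the SG range, and in YSGr replicates 1 and 2 it was the other way round. YSGr replicate 3 was like YSGnr in both shares. The longest coding transcript has 9964 bases for Tead1 and 3396 for Tead2, and scaling to length does not remove a library's trend with length. That trend had a Spearman rho of 0.17, 0.14 and -0.42 in YSGr replicates 1, 2 and 3. In YSGnr it was -0.08, -0.55 and -0.53. The part of this trend in the shares was not tested.

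**Figure D3:**
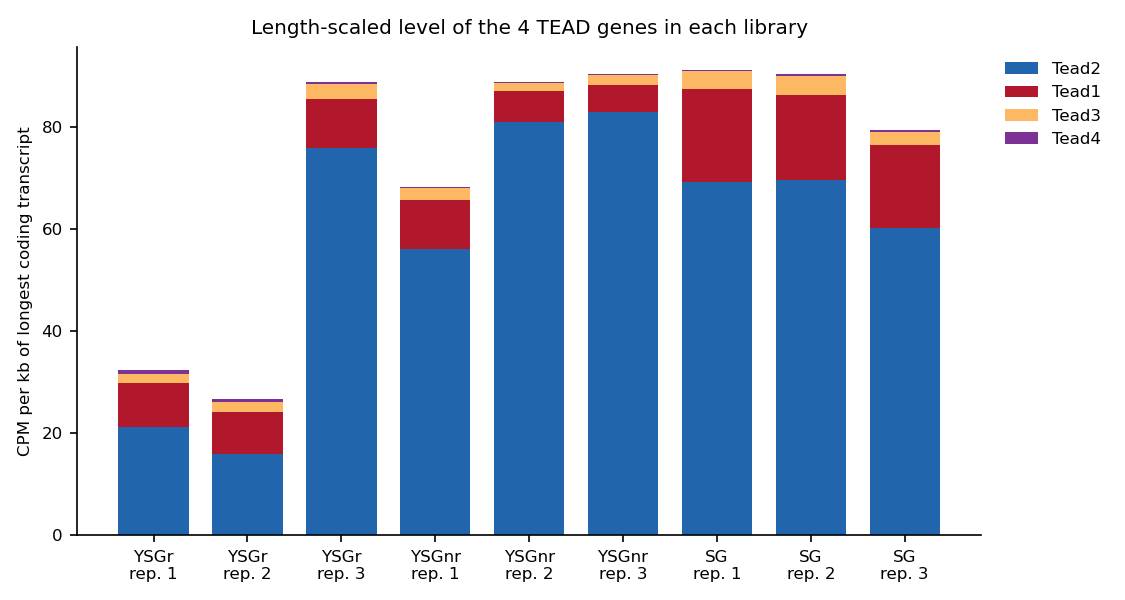
Level of Tead1 to Tead4 in CPM per kb of longest coding transcript (vertical axis, from 0), stacked for each of the 9 libraries. The sum was 32.2 and 26.6 in YSGr replicates 1 and 2 and between 68.2 and 91.1 in the other 7 libraries, and the Tead1 segment was shorter in every floxed library than in every SG library. The trend of each library with transcript length was not removed from these levels.

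Vgll4 (ENSMUSG00000030315.15, chromosome 6, 114860628 to 114969994, minus strand), the competitor of YAP for TEAD binding, was at 5.18, 4.92 and 5.91 log2 CPM in YSGr, at 6.05, 5.91 and 6.12 in YSGnr and at 5.83, 5.995 and 5.82 in SG. YSGr replicates 1 and 2 were again the lowest libraries, as for Tead2, while YSGr replicate 3 lay within the SG range. The differences, -0.54 in YSGr against SG (adjusted p = 0.164 in limma), -0.69 in YSGr against YSGnr (adjusted p = 0.0836 in limma) and 0.14 in YSGnr against SG (95% interval -0.36 to 0.65), were not called. Without YSGr replicate 3 the Vgll4 difference of YSGr was -0.83 against SG (adjusted p = 0.00239 in limma) and -0.97 against YSGnr (adjusted p = 0.00099 in limma), both called. Without YSGr replicate 2 the difference from SG was -0.34 and not called (adjusted p = 0.478 in limma).

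Amot (ENSMUSG00000041688.16, chromosome X, 145446425 to 145505181, minus strand) was at 5.78, 5.61 and 4.81 log2 CPM in YSGr, at 4.92, 4.58 and 4.43 in YSGnr and at 5.78, 5.76 and 5.90 in SG. YSGr replicates 1 and 2 were near SG and YSGr replicate 3 was within the YSGnr range, the reverse of the Tead2 and Vgll4 pattern. Amot fell in YSGnr against SG by 1.17 log2 units (SE 0.24, adjusted p = 0.0384 in limma) and differed by -0.41 in YSGr against SG, which was not called (adjusted p = 0.326 in limma) and was -0.12 without YSGr replicate 3. The difference of 0.76 between YSGr and YSGnr was not called (adjusted p = 0.0804 in limma), and was 1.05 and called without YSGr replicate 3 (adjusted p = 0.00147 in limma) and 0.89 and called without YSGnr replicate 1 (adjusted p = 0.0379 in limma). The YSGnr call was lost without SG replicate 1, 2 or 3 (adjusted p = 0.163, 0.148 and 0.168 in limma), YSGr replicate 2 (0.0601) or YSGnr replicate 2 or 3 (0.0992 and 0.146), with median scaling and without a mean-variance trend (0.0519 in both). With the length trend removed it was -0.78 (adjusted p = 0.0256 in limma), and the difference between YSGr and YSGnr was 0.39 and not called (adjusted p = 0.0843 in limma). Amot is X-linked, and the part of sex in its level was not tested.

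Wwc1 (ENSMUSG00000018849.6, chromosome 11, 35838400 to 35980527, minus strand) was at 5.14, 5.08 and 5.79 log2 CPM in YSGr, at 5.25, 5.78 and 5.68 in YSGnr and at 6.40, 6.36 and 6.40 in SG. The SG libraries lay close together, and all 6 floxed libraries lay below them. Wwc1 fell in YSGr against SG by 1.05 log2 units (SE 0.21, adjusted p = 0.0174 in limma). Its difference of -0.82 in YSGnr against SG (95% interval -1.29 to -0.35) was not called (adjusted p = 0.0642 in limma). With YSGr replicate 3 left out it was called in both, at -1.28 and -0.82 (adjusted p = 0.000826 and 0.0112 in limma). The YSGr call was lost without SG replicate 1, 2 or 3 (adjusted p = 0.0807, 0.0721 and 0.0695 in limma) or YSGr replicate 1 or 2 (0.0763 and 0.0792). The Wwc1 difference between YSGr and YSGnr was -0.23 (adjusted p = 0.433 in limma), and -0.46 and called without YSGr replicate 3 (adjusted p = 0.044 in limma). It was -0.14 without YSGr replicate 1, -0.11 without YSGr replicate 2, -0.39 without YSGnr replicate 1, -0.13 without YSGnr replicate 2 and -0.42 with the length trend removed, none of them called in limma.

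Nf2 (ENSMUSG00000009073.16, chromosome 11, 4765845 to 4849536, minus strand) had the narrowest range of the 10 genes over the 9 libraries. It was at 7.62, 7.49 and 7.47 log2 CPM in YSGr, at 7.21, 7.49 and 7.52 in YSGnr and at 7.44, 7.33 and 7.39 in SG. The differences were 0.14 in YSGr against SG (95% interval -0.16 to 0.43), 0.02 in YSGnr against SG (95% interval -0.27 to 0.32) and 0.12 in YSGr against YSGnr (95% interval -0.18 to 0.41). None was called in limma (adjusted p = 0.564, 0.931 and 0.532).

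Groups without overlap were counted as a further description. In YSGr against SG the libraries of 4 of the 10 genes lay wholly below SG (Yap1, Wwtr1, Tead1 and Wwc1) and those of Nf2 wholly above, where 17.3% of all genes tested lay wholly below and 19.5% wholly above. For YSGnr, 7 of the 10 lay wholly below SG (all but Tead2, Vgll4 and Nf2), where 21.3% of all genes did. Relative to YSGnr, 3 of the 10 lay wholly above in YSGr (Yap1, Wwtr1 and Tead4), where 15% of all genes did. Tead4 was among the tested genes only because its YSGr values helped it past the filter. The counts against SG include Yap1, the floxed gene.

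**Figure D4:**
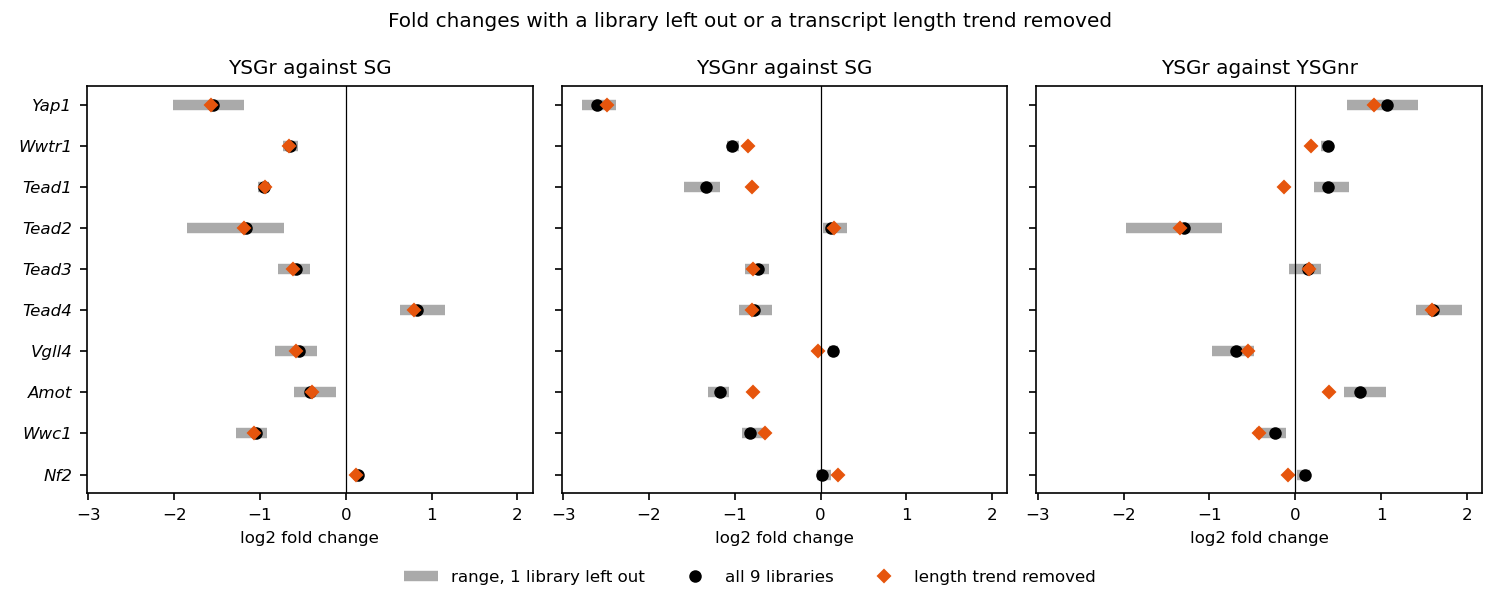
Log2 fold change of each gene (horizontal axis) with all 9 libraries, with the transcript length trend removed, and as a range over the 9 fits that leave out 1 library each. Yap1, Wwtr1, Tead1 and Wwc1 stayed below 0 in both comparisons with SG, while Tead2 in YSGr ranged most and Tead1 in YSGr against YSGnr changed sign with the trend removed.

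The order of levels between genes was read in CPM per kb of longest coding transcript. In YSGr Nf2 came first at 39.1 ± 2.31 and Tead2 second at 37.6 ± 33.1, with Yap1 eighth at 3.05 ± 1.87 (SD, n = 3 each). In YSGnr Tead2 came first at 73.3 ± 14.9 and Yap1 was ninth at 1.32 ± 0.359 (SD, n = 3 each). The order in SG was Tead2 at 66.2 ± 5.33, Nf2 at 35.5 ± 1.41, Vgll4 at 29.1 ± 2.02, Wwc1 at 18.4 ± 0.326, Tead1 at 17.1 ± 1.05, Wwtr1 at 9.52 ± 1.08, Amot at 8.08 ± 0.431, Yap1 at 7.98 ± 0.255, Tead3 at 3.24 ± 0.595 and Tead4 at 0.310 ± 0.0928 (SD, n = 3 each). In SG the ranges of Wwc1 and Tead1 overlapped, as did those of Amot and Yap1, so these neighbours did not differ beyond their spread. The order depends on which transcript is used: with the median coding transcript, which is 1248 bases for Tead1, Tead1 was at 136 ± 8.41 and in the second place in SG (SD, n = 3).

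Spread within groups also set the genes apart. Over the 3 YSGr libraries the SD of Tead2 was 1.20 log2 units and that of Yap1 0.84, above 97.5% and 93.2% of all genes tested. Nf2, at 0.08, was above only 9.44% of them. In SG the SD of Wwc1 was 0.03, above 5.74% of genes, and that of Yap1 was 0.05, above 16.1%.

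The other genes of the pathway, 28 kinases, adaptors, upstream regulators and TEAD cofactors, gave 24 tested genes. Patj, Vgll1 and Vgll2 had no row, and Vgll3 was below the filter. In YSGr against SG, 1 of the 24 rose and 4 fell, beside 6.58% and 3.97% of all genes tested. Taok3, a kinase that can activate the cascade, rose by 0.97 log2 units (adjusted p = 0.0427 in limma), while Ajuba, a LIM protein that binds and inhibits Lats kinases, fell by 1.07, the junction scaffold Mpdz by 0.83, the angiomotin relative Amotl1 by 0.70 and the kinase Map4k4 by 0.56 (adjusted p between 0.0151 and 0.0452 in limma). In YSGnr against SG 3 of the 24 fell and none rose, beside 2.17% and 1.19% of all genes tested. Ajuba fell by 1.12, Wwc2, a relative of Kibra, by 1.11 and Map4k4 by 0.69 (adjusted p = 0.0485, 0.0205 and 0.0433 in limma). Relative to YSGnr, 2 of the 24 were higher in YSGr, Taok3 by 1.12 and the phosphatase Ptpn14 by 0.65, and none lower, a share near the 5.97% of all genes called there. The core kinases Stk3, Stk4, Lats1 and Lats2 with Sav1, Mob1a and Mob1b passed the test in none of the 3 comparisons. Their log2 fold changes in YSGnr against SG were, in that order, -0.26, 0.04, -0.81, -0.71, -0.38, -0.25 and -1.03. In YSGr against SG they were -0.54, -0.25, -0.31, -0.12, -0.52, -0.35 and -0.47. At an unadjusted p below 0.05 in limma, 13 of the 24 were lower and 0 higher in YSGnr against SG. Of all genes tested 14.5% were lower and 11.1% higher there. In YSGr against SG 8 of the 24 were lower and 1 higher, beside 11.9% and 14.3% of all genes.

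The levels of these genes split by library. Taok3 was at 6.19, 6.17 and 5.33 log2 CPM in YSGr, at 5.13, 4.76 and 4.43 in YSGnr and at 4.84, 4.94 and 5.02 in SG. All YSGr libraries were above all others, replicates 1 and 2 most. Ajuba was at 2.89, 2.50 and 3.53 log2 CPM in YSGr, at 3.09, 3.01 and 2.67 in YSGnr and at 4.04, 4.15 and 3.94 in SG, with every floxed library below SG. Fat4, a relative of the fly cadherin fat that acts at the top of the pathway in flies, was at 5.16, 4.85 and 3.67 log2 CPM in YSGr, at 4.59, 3.11 and 2.99 in YSGnr and at 4.97, 4.69 and 4.82 in SG, and was chosen after its values were seen. YSGr replicate 3 and YSGnr replicates 2 and 3 had the lowest levels of Fat4, and also of Amot. Amot was below SG in YSGnr replicate 1 too, at 4.92 against 5.76 to 5.90 log2 CPM. The same libraries had the most negative trend with transcript length, with a Spearman rho of -0.42, -0.55 and -0.53. The part of transcript length in the Fat4 levels was not tested. The median log2 fold change of the 24 was -0.29 in YSGr against SG, -0.50 in YSGnr against SG and 0.28 in YSGr against YSGnr, beside -0.02, -0.01 and 0.01 over all genes tested. Each omission of 1 SG library, of YSGr replicate 1 or of YSGr replicate 2 left 0 of the 24 called in YSGr against SG (7 to 8 at an unadjusted p below 0.05 in limma, beside 18.4% to 19.5% of all genes), and omission of YSGr replicate 3 left 8, beside 27.9% of all genes called. The count in YSGnr against SG was 0 without any 1 SG library or YSGnr replicate 2 or 3 (10 to 12 at an unadjusted p below 0.05 in limma, beside 15.9% to 20.2% of all genes). It was 1 without YSGr replicate 1, 11 without YSGr replicate 3 and 12 without YSGnr replicate 1, beside 1.55%, 17.3% and 21.8% of all genes called. The count in YSGr against YSGnr was 9 without YSGnr replicate 1 and 13 without YSGr replicate 3, beside 31.0% and 42.8% of all genes called, and 0 without any other library (3 to 7 at an unadjusted p below 0.05 in limma, beside 17.6% to 28.5% of all genes).

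**Figure D5:**
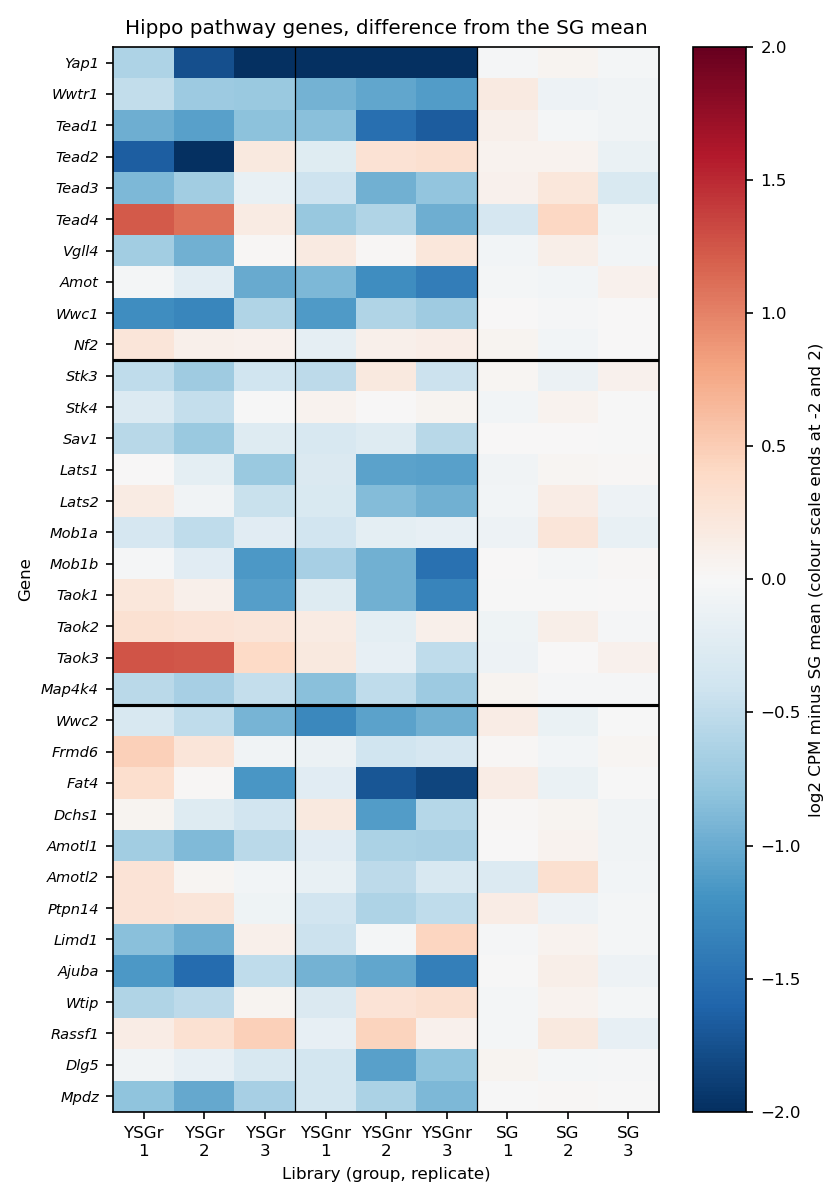
Log2 CPM minus the SG mean (colour, blue lower and red higher, ending at -2 and 2) of the 10 genes (top block), of the cascade kinases and their adaptors (middle) and of upstream regulators (bottom) in the 9 libraries. Yap1, Tead1, Wwc1 and Ajuba were blue in all 6 floxed libraries, Taok3 and Tead4 were red in YSGr replicates 1 and 2, and Tead2 was blue in those 2 libraries.

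Known target genes of YAP and TEAD were called in both directions. Of the 22 listed targets 21 were tested, and 3 rose and 1 fell in YSGr against SG, beside 6.58% and 3.97% of all genes tested. Myof rose by 1.14, Gadd45a by 0.78 and Nt5e by 0.72, and Asap1 fell by 0.99 (adjusted p between 0.00871 and 0.0478 in limma). In YSGnr against SG 1 of the 21 rose, Nt5e by 0.77, and 1 fell, Asap1 by 0.76 (adjusted p = 0.0356 and 0.043 in limma), where 3.36% of all genes were called. Of the 21, 1 was higher in YSGr than in YSGnr, Ptpn14, and none lower, a share below the 5.97% of all genes called there. The median log2 fold change of the 21 was -0.09, -0.33 and 0.16 in the 3 comparisons, beside -0.02, -0.01 and 0.01 over all genes tested. At an unadjusted p below 0.05 in limma, 8 of the 21 were lower and 3 higher in YSGnr against SG. Of all genes tested 14.5% were lower and 11.1% higher there. In YSGr against SG 4 were lower and 4 higher, beside 11.9% and 14.3% of all genes. In YSGr against YSGnr 2 were lower and 7 higher, beside 14.6% and 19.3% of all genes. Amotl2, Lats2 and Ptpn14 belong to this list and to the pathway list above.

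A pair of widely used targets, named although neither was called, had low values. Ctgf (also Ccn2) was at 1.83, 1.34 and 1.09 log2 CPM in YSGr, at 1.25, 0.77 and 2.09 in YSGnr and at 0.55, 0.34 and 1.26 in SG. Cyr61 (also Ccn1) was at 1.05, 0.76 and 1.32 log2 CPM in YSGr, at 0.45, 1.19 and 1.68 in YSGnr and at 2.73, 1.53 and 1.81 in SG. The floxed groups overlapped each other for both genes, and neither passed the test in any comparison. Cyr61 lay wholly below SG in YSGr, as did 17.3% of all genes tested, with a log2 fold change of -0.98 (unadjusted p = 0.0363 in limma). It was -0.91 in YSGnr against SG (unadjusted p = 0.0474 in limma), where the libraries overlapped. Ctgf went the other way, at 0.71 and 0.66 (unadjusted p = 0.11 and 0.133 in limma). Nt5e was at 3.14, 3.06 and 3.25 log2 CPM in YSGr, at 3.09, 3.36 and 3.15 in YSGnr and at 2.42, 2.46 and 2.41 in SG, with all 6 floxed libraries above SG.

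In bulk tissue fewer cells of a type and less RNA per cell cannot be told apart, so the levels of cell type markers are given beside the results. Granule neuron markers, 10 genes, were called higher in 8 and lower in 0 in YSGr against SG, beside 6.58% and 3.97% of all genes tested. In YSGnr against SG 5 were called higher and 0 lower, beside 1.19% and 2.17%. In YSGr against YSGnr 8 were called higher and 0 lower, beside 5.09% and 0.879%. Their summed level was 1027 to 1517 CPM in YSGr, 583 to 705 CPM in YSGnr and 437 to 506 CPM in SG. Neural stem and astroglial markers, 15 genes, were called higher in 3 and lower in 3 in YSGr against SG, beside 6.58% and 3.97% of all genes. In YSGnr against SG 1 was called higher and 4 lower, beside 1.19% and 2.17%. Their sums were 3009 to 3782 CPM in YSGr, 1937 to 3000 CPM in YSGnr and 3306 to 3456 CPM in SG. Of these genes, the stem cell gene Sox2 was at 5.37, 5.31 and 5.06 log2 CPM in YSGr, at 4.46, 5.09 and 4.68 in YSGnr and at 6.15, 6.16 and 6.17 in SG, below SG in every floxed library. Other genes of that list were higher in YSGr than in SG, with Gfap up by 1.71 and Hopx by 1.42 log2 units (adjusted p = 0.0229 and 0.00129 in limma). Endothelial markers, 10 genes, had 0 calls in limma in YSGr against SG (0 at an unadjusted p below 0.05), where 10.5% of all genes were called. In YSGnr against SG they had 3 lower calls, beside 2.17% of all genes. Their sums were 252 to 281 CPM in YSGr, 160 to 220 CPM in YSGnr and 268 to 298 CPM in SG. The endothelial sums of YSGr and SG overlapped, and those of YSGnr lay wholly below those of SG. Mural and fibroblast markers, 11 genes, summed to 480 to 655 CPM in YSGr, 316 to 404 CPM in YSGnr and 502 to 549 CPM in SG. They had 1 higher and 1 lower call in YSGr against SG, beside 6.58% and 3.97% of all genes. In YSGnr against SG they had 1 lower call, beside 2.17%.

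Oligodendrocyte markers, 9 genes, were called higher in 6 and lower in 2 in YSGr against SG, beside 6.58% and 3.97% of all genes tested. In YSGnr against SG 2 were called higher, beside 1.19% of all genes. They summed to 2365 to 3639 CPM in YSGr, 1055 to 2047 CPM in YSGnr and 881 to 1417 CPM in SG. Microglial markers, 10 genes, had 0 calls in limma in any of the 3 comparisons (1 or 2 at an unadjusted p below 0.05), with sums of 201 to 284 CPM in YSGr, 163 to 439 CPM in YSGnr and 255 to 271 CPM in SG. Of all genes tested 10.5% were called in YSGr against SG, 3.36% in YSGnr against SG and 5.97% in YSGr against YSGnr. Ependymal and choroid plexus markers, 8 genes, ran from 6.86 to 972 CPM in YSGr, 48.0 to 1538 CPM in YSGnr and 182 to 586 CPM in SG, with 0 calls in limma among 6 tested (1 at an unadjusted p below 0.05) and Tmem212, Rsph1 and Dynlrb2 at the lowest value in YSGnr replicate 1. Of the 12 granule progenitor and Hedgehog markers 3 were called lower in YSGr against SG, beside 3.97% of all genes tested. In YSGnr against SG 0 were called in limma (0 at an unadjusted p below 0.05), beside 3.36% of all genes. The part of these cell types in the differences of the 10 genes was not tested.

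Genes with the most similar profile were ranked by the root mean square distance between log2 CPM profiles over the 9 libraries, each less its own mean, among 12433 genes. For Wwtr1 these were Lamc1, a laminin chain (distance 0.07), Col4a5, a collagen IV chain (0.09), Vcl, the adhesion protein vinculin (0.11), Fam198b (0.11) and Gli3, a Hedgehog pathway transcription factor (0.11), against a median of 0.55 over all genes compared. For Tead1 they were Soat1 (0.10), Phactr4 (0.13), Dysf (0.15), Gli3 (0.17) and Peg10 (0.18), against a median of 0.69. For Yap1 the nearest were more distant, Epha3 (0.48), Rfx4 (0.50), Gabra2 (0.53), Hmcn1 (0.53) and Prdm13 (0.54), against a median of 1.20. Lamc1 was at 6.79, 6.61 and 6.68 log2 CPM in YSGr, at 6.27, 6.19 and 6.25 in YSGnr and at 7.40, 7.25 and 7.27 in SG, the same order of groups as in Wwtr1. The 9 libraries that define these distances are those of the comparisons above, so the lists are descriptions with no test.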

How the data were processed

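RNA was extracted from tumour tissue by a Trizol-type protocol and sequenced at BGI on the DNBseq platform, per the labels. The submitters' processing notes name Trimmomatic, RSEM, Bowtie2, Picard, edgeR and the build mm10; no version, strand setting or annotation is stated there. Values for 17482 genes were deposited by the authors as log2 CPM. The lowest value, -3.52 in every library, implies an added count averaging 2.00 reads, from which library sizes and reads were back-calculated. Among the lower back-calculated counts, between 59.7% and 69.7% in a library were whole to within 0.02 reads. The main comparisons were therefore run on the log2 CPM, and voom on the back-calculated reads served only as an alternative setting. Replicates differed beyond sampling noise, the median over genes of the chi-square being 1.96 or more, against 0.455 from sampling alone, so none was merged.

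Groups were compared with limma 3.58.1 in R 4.3.3, fitting 1 mean per group to all 9 libraries, with a mean-variance trend and Benjamini-Hochberg adjustment over the 15251 genes with log2 CPM above 0 in at least 3 libraries. All 10 genes passed this filter. A gene was called at an adjusted p below 0.05. The steps were tested on simulated data with independent noise. That simulation had no length trend and no deviating or shallow library, so it does not cover these features of the data. The text names all 10 genes with every library's value, up to 6 called genes of each further list by size of change and the 5 nearest profiles. Up to 3 members of each marker list are named. The granule progenitor and Hedgehog list exceeds this, with Gli1, Atoh1, Zic1 and Zic2. The 10 genes and all lists were chosen with earlier results of these data known. Lengths and positions came from GENCODE M21 on GRCm38, which gave a length for 95.6% of symbols, and promoter windows from RefSeq. Alternatives were other filters, an added value of 1 CPM, other scalings, the compared groups alone, no trend, array weights, a replicate block, a removed length trend, voom and left-out libraries. The fits with a removed length trend covered only the 14603 tested genes with a length. The fit with YSGnr replicate 1 as the only YSGnr library, and those combining the removed trend with a left-out library, were chosen after seeing the data.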

Additional observations from a re-analysis of the deposited data

How the results depend on the processing

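The direction of each of the 10 genes was kept in all 3 comparisons under most settings. It was reversed for Vgll4 in YSGnr against SG with the length trend removed, at -0.028 and, without YSGnr replicate 1 too, at -0.13. In YSGr against YSGnr it was reversed for Tead1, at -0.13, and Nf2, at -0.086, with the trend removed, and for Tead1, at -0.12, Tead3, at -0.16, and Wwc1, at 0.081, with YSGnr replicate 1 as the only YSGnr library. Over left-out libraries Nf2 ran from -0.036 to 0.12 in YSGnr against SG and Tead3 from -0.072 to 0.30 in YSGr against YSGnr. None of these values was called in limma, with all libraries or under the setting, and the cause was not tested. Depth limits Tead4 and every low gene in YSGnr replicate 1.

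Over left-out libraries the 10 genes gave 0 to 8 calls in YSGr against SG, 0 to 6 in YSGnr against SG and 0 to 7 in YSGr against YSGnr. All tested genes gave 328 to 4257, 19 to 3332 and 1 to 6528 calls, and the 24 further pathway genes 0 to 8, 0 to 12 and 0 to 13. Fewer libraries enter these fits.

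In YSGr against SG, with 4 of the 10 genes, 1608 genes and 5 of the 24 pathway genes called, array weights gave 8, 8582 and 14, omission of YSGr replicate 3 and YSGnr replicate 1 gave 8, 7556 and 14, and omission of YSGr replicate 3 with the trend removed gave 8, 5194 and 11. In YSGnr against SG, with 512 genes and 3 pathway genes called, array weights gave 7155 and 15, both omissions 8074 and 18, the compared groups alone 1190 and 6, voom 852 and 5, and the removed trend without YSGnr replicate 1 gave 1628 and 5. The pathway count there was 1 without a filter and 1 with the trend removed.

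In YSGr against YSGnr, with 1 of the 10 genes, 910 genes and 2 pathway genes called, array weights gave 8, 9410 and 17, and both omissions 8, 9867 and 17. The compared groups alone gave 0, 0 and 0 in limma, with 5, 3368 and 5 at an unadjusted p below 0.05. Median scaling gave 0, 316 and 0, with 6 and 7 of the 10 and the 24 at an unadjusted p below 0.05. YSGnr replicate 1 as the only YSGnr library gave 0, 219 and 0 in limma, with 1 and 4 at an unadjusted p below 0.05. That fit assumes that the lone, shallow library varies like the other groups, so its calls say nothing on whether the differences hold. The 10 genes gave 0 calls with quantile normalization (6 at an unadjusted p below 0.05 in limma) and with a filter at log2 CPM above 1, where Tead4 was not tested (5). All genes gave 568 calls without a mean-variance trend, 1861 with the length trend removed and 1800 with voom, the last as 1312 higher and 488 lower. The pathway genes gave 0 without a trend in variance and 0 with quantile normalization (6 and 8 at an unadjusted p below 0.05 in limma), and 1 without a filter, 1 with an added value of 1 CPM and 1 with the length trend removed.

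The replicate numbers share only a name: same-numbered libraries did not deviate together in every pair, and 6 of 18 best matches were with the own number. With the number as a block, 3 of the 24 pathway genes were called in YSGr against SG. In YSGnr against SG the block gave 341 genes and 1 pathway gene. In YSGr against YSGnr the block gave 0 of the 10 genes (6 at an unadjusted p below 0.05 in limma) and 1 pathway gene, with Tead4 at 1.61 (adjusted p = 0.0514 in limma), and it changed no other call among the 10 genes.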
